A study of Homo sapiens with 6 samples.

Results

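SNAI1, SNAI2, ZEB1, ZEB2, TWIST1, TWIST2, PRRX1 and TCF4 encode transcription factors that drive the epithelial-mesenchymal transition (EMT). Their RNA levels were examined in A2058 melanoma cells with and without vitamin C. The genes were taken by symbol, as 8 of the 60675 gene identifiers in the count table, and TCF4 is here the basic helix-loop-helix (bHLH) factor also called E2-2. Of these 8 genes, 7 had at least 1 count in any library and 6 passed the filter on low counts that left 16353 genes to test. A2058 is an established cell line from a metastatic melanoma. RNA-seq was done on ribosome-depleted total RNA from 3 control wells, grown in medium without vitamin C, and from 3 wells of the same line treated with 100 µM vitamin C (L-ascorbic acid) for 48 h. A protocol entry in the labels names sodium ascorbate at 50 µM instead, and the labelled 100 µM is used here. The wells are cultures of 1 line, so p-values measure the spread between wells.

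EMT is the program by which epithelial cells lose their junctions and take on the shape and motility of mesenchymal cells. SNAI and ZEB proteins are zinc finger repressors that bind E-box sequences in the promoters of junction genes such as CDH1, the gene for E-cadherin. TWIST factors and TCF4 are bHLH proteins that bind E-boxes as dimers, and PRRX1 is a homeobox factor. Melanocytes come from the neural crest rather than from an epithelium, and SNAI2 and ZEB2 are part of their normal program, while ZEB1 and TWIST1 are known from invasive melanoma.

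Library totals ran from 16248869 to 41884588 counts in control wells and from 20944956 to 32549362 in vitamin C wells. Levels are CPM (counts scaled to a common library total) after TMM scaling, whose factors ran from 0.9957 to 1.012. A gene was called higher or lower at an adjusted p under 0.05 in edgeR's quasi-likelihood test. This test called 11.2% of the 16353 genes, 6.09% higher and 5.09% lower with vitamin C. Vitamin C replicate 3 stood apart from its group on the second principal component. Control replicate 3 lay at the same end, with the control wells evenly spread along it. The values of the EMT factors without each of these 2 wells are given with each factor. All 11 melanocyte lineage markers passed the filter, 6 were called higher and 1 lower, and their summed level was 2870 to 2970 CPM in control wells and 2730 to 2860 CPM with vitamin C. MITF, the master regulator of the lineage, stood at 527 ± 10.5 CPM in control wells and 507 ± 22.7 CPM with vitamin C (mean ± SD, 3 wells each), and SOX10, which acts upstream of it, at 102 ± 2.29 and 103 ± 12.3 CPM. Called members changed in both directions. MLANA, a melanosome protein gene, rose from 1.54 ± 0.29 to 15.4 ± 0.671 CPM (edgeR adjusted p = 9.0e-09), PMEL from 89.2 ± 6.59 to 148 ± 13.6 CPM (edgeR adjusted p = 2.1e-05) and the receptor gene KIT from 4.45 ± 0.436 to 9.64 ± 0.784 CPM (edgeR adjusted p = 5.6e-05). DCT, a pigment enzyme gene with many of the counts in the summed level, fell from 1510 ± 44.4 to 1230 ± 48.4 CPM (edgeR adjusted p = 6.7e-04).

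Vitamin C wells held more RNA of SNAI2, TWIST1 and PRRX1 and less of ZEB1. Of the 6 factors tested, 3 were called higher and 1 lower, beside the 11.2% of all genes called. Among tested protein-coding genes, which all 6 factors are, 13.4% were called. The levels of 5 of the 6 did not overlap between the groups, beside 30.6% of all genes tested (15.6% with the vitamin C wells higher and 14.9% with them lower). For the factors these counts were 3 and 2. The 6 log2 fold changes had a median of 0.17, and that of all genes tested was 0.0. ZEB1 and ZEB2 both lay near the threshold, and the ZEB1 call was kept under only 5 of 14 alternative settings. SNAI1 overlapped between the groups, TCF4 was too low to test and TWIST2 was not counted in any library.

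**Figure D1:**
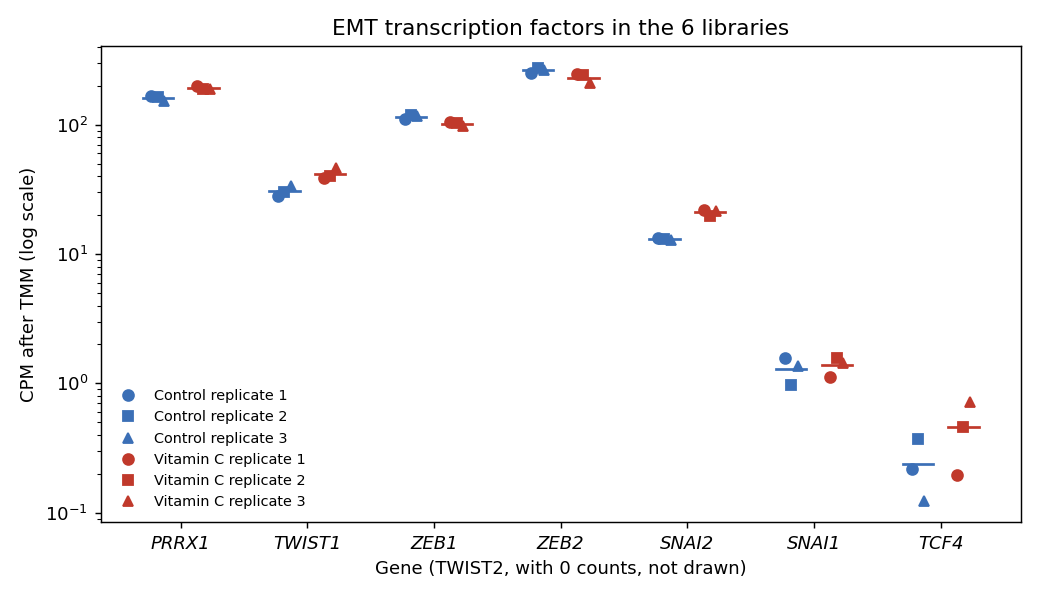
EMT transcription factors in the 6 libraries, plotted as CPM after TMM on a log axis, with a marker for each well and a bar at the group mean (3 wells per group). The vitamin C markers of SNAI2, TWIST1 and PRRX1 lie above all control markers, those of ZEB1 and ZEB2 below, and those of SNAI1 and TCF4 among them.

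SNAI2, also called Slug, is a repressor needed by migrating neural crest cells and by melanocytes. It is encoded at chr8:48917604-48921740 (GRCh38), minus strand. Control replicates 1, 2 and 3 held 13.4, 13.0 and 12.9 CPM of SNAI2, and vitamin C replicates 1, 2 and 3 held 22.1, 19.7 and 21.7 CPM. The lowest vitamin C well was above the highest control well by many times the spread of the controls. The mean rose from 13.1 ± 0.239 to 21.2 ± 1.33 CPM (mean ± SD, 3 wells each), a fold of 1.61 with a 95% interval of 1.43 to 1.81. The log2 fold change was 0.69 (SE 0.0777, edgeR adjusted p = 8.8e-05). SNAI2 was rank 109 by p among the genes tested, the best rank of the 6 factors.

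SNAI1, or Snail, is the close relative of SNAI2 and lies at chr20:49982999-49988886 on the plus strand. It was counted 65, 26 and 22 times in control replicates 1 to 3 and 29, 52 and 30 times in vitamin C replicates 1 to 3. Scaled for depth, these were 1.56, 0.968 and 1.36 CPM against 1.13, 1.58 and 1.43 CPM, and the groups overlapped. The log2 fold change was 0.08 (SE 0.256, edgeR adjusted p = 0.88), with a 95% interval from -0.47 to 0.63, so a change of the size seen for TWIST1 was not detectable at this depth. Its sign turned when control replicate 2 (-0.10) or vitamin C replicate 2 (-0.04) was left out. It was 0.10 without control replicate 3 and 0.07 without vitamin C replicate 3.

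TWIST1 is a bHLH factor of the neural crest and mesoderm, at chr7:19020991-19117672 on the minus strand. It stood at 27.9, 30.3 and 33.5 CPM in control replicates 1 to 3. The vitamin C wells held 39.1, 40.1 and 46.2 CPM, and each was above every control well. The mean rose from 30.5 ± 2.82 to 41.8 ± 3.86 CPM (mean ± SD, 3 wells each), a fold of 1.38 (95% interval 1.22 to 1.56). The log2 fold change was 0.46 (SE 0.0818, edgeR adjusted p = 0.0026).

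TWIST2, the paralog of TWIST1, lies at chr2:238848032-238910543 on the plus strand and had 0 counts in all 6 libraries. A count of 0 allows up to 3 counts, which is 0.0716 to 0.185 CPM in a single library and 0.0183 CPM over the 6 together. These limits cover counting error only. TWIST RNA in these wells was therefore TWIST1 RNA as far as this depth shows.

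PRRX1, a homeobox factor of mesenchyme, is at chr1:170662728-170739419 on the plus strand. Its levels were 166, 165 and 154 CPM in control replicates 1 to 3 and 200, 190 and 189 CPM in vitamin C replicates 1 to 3. The groups did not overlap, with control replicate 3 the lowest well. The mean rose from 162 ± 6.63 to 193 ± 6.15 CPM (mean ± SD, 3 wells each), a fold of 1.19 (95% interval 1.11 to 1.28). The log2 fold change was 0.25 (SE 0.0476, edgeR adjusted p = 0.004).

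SNAI2, TWIST1 and PRRX1 were called higher under each of the 14 alternative settings tried. Their log2 fold changes there ran from 0.65 to 0.74, from 0.39 to 0.53 and from 0.22 to 0.27. Without vitamin C replicate 3 they were 0.67, 0.40 and 0.27, and without control replicate 3 they were 0.68, 0.53 and 0.22. The highest edgeR adjusted p of SNAI2 was 0.0011, that of TWIST1 was 0.021 and that of PRRX1 was 0.034.

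ZEB1 and ZEB2 are large repressors with a zinc finger cluster at each end and a homeodomain between them. ZEB1 is at chr10:31318495-31529814 on the plus strand. It stood at 110, 118 and 117 CPM in control replicates 1 to 3 and at 105, 103 and 97.7 CPM in vitamin C replicates 1 to 3. The highest vitamin C well lay just under the lowest control well. The mean fell from 115 ± 4.67 to 102 ± 3.77 CPM (mean ± SD, 3 wells each), a fold of 0.886. The log2 fold change was -0.17 (SE 0.0513, edgeR adjusted p = 0.044). This call was kept under 5 of 14 alternatives, with an adjusted p from 0.029 to 0.17, and was lost when any 1 of the 6 libraries was left out. It stood at -0.14 on the log2 scale without vitamin C replicate 3 and -0.16 without control replicate 3.

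ZEB2 lies at chr2:144364364-144524583 on the minus strand. It stood at 253, 277 and 266 CPM in control replicates 1 to 3 and at 246, 241 and 209 CPM in vitamin C replicates 1 to 3. The groups did not overlap, with vitamin C replicate 3 the lowest well. The means were 265 ± 12.1 and 232 ± 19.8 CPM (mean ± SD, 3 wells each), a fold of 0.875. The log2 fold change was -0.19 (SE 0.0603, edgeR adjusted p = 0.056) and missed the threshold. It passed under 5 of 14 alternatives, with an adjusted p from 0.015 to 0.21. Without vitamin C replicate 3 it was -0.12 (adjusted p = 0.094), and without control replicate 3 it was -0.19 (adjusted p = 0.16). ZEB1 and ZEB2 thus had log2 fold changes of nearly the same size on either side of the threshold.

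TCF4 spans chr18:55222331-55664787 on the minus strand. Its counts were 9, 10 and 2 in control replicates 1 to 3 and 5, 15 and 15 in vitamin C replicates 1 to 3. The sums were 21 and 35 counts, and the groups overlapped. With no filter on low counts the log2 fold change was 0.85 (edgeR adjusted p = 0.58).

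**Figure D2:**
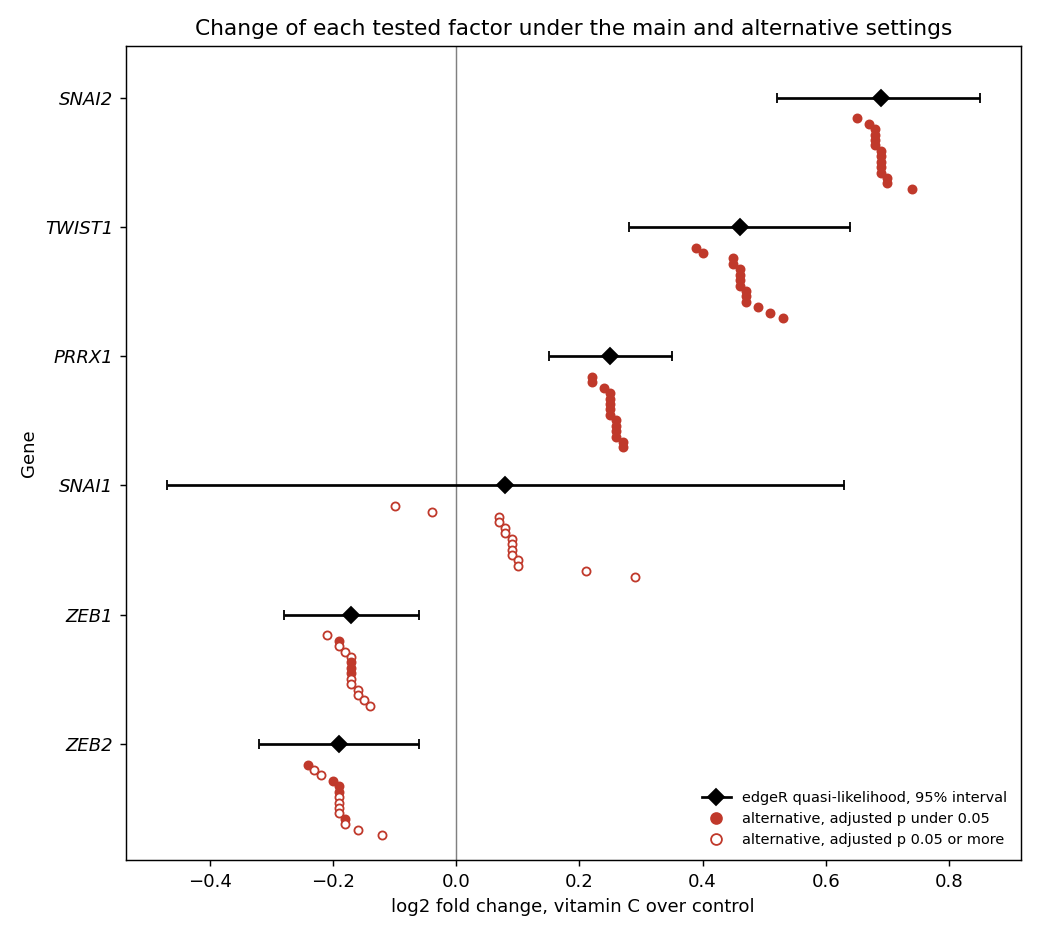
Log2 fold change of each tested factor, vitamin C over control, with the 95% interval of edgeR's quasi-likelihood test in black. The 14 alternative settings lie below it, filled where the rounded adjusted p was under 0.05. The ZEB1 call of limma-voom, 0.05 after rounding, is therefore drawn open. SNAI2, TWIST1 and PRRX1 stay right of 0 and filled throughout, ZEB1 and ZEB2 stay left of 0 with a mix of filled and open points, and SNAI1 lies on both sides of 0.

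Levels were also divided by gene length to set the factors beside each other. The length was that of all exon bases of a gene, which for ZEB2 (25058 bases) is far longer than its longest transcript (9583 bases). By exon length, the order in control wells was PRRX1 (19.6 ± 0.804 CPM per kb), TWIST1 (15.0 ± 1.39), ZEB1 (13.3 ± 0.54), ZEB2 (10.6 ± 0.484), SNAI2 (3.86 ± 0.0705), SNAI1 (0.769 ± 0.179) and TCF4 (0.00853), with SDs over 3 wells. The ranges of neighbours in this order did not overlap, although the lowest TWIST1 well and the highest ZEB1 well both round to 13.7. PRRX1 was above 80.8% of the tested protein-coding genes by this measure, and SNAI2 above 43.6%. By longest transcript, ZEB2 moved up to the second place with 27.7 CPM per kb, and ZEB1 (18.4) and TWIST1 (18.3) could not be told apart. PRRX1 was first and SNAI2, SNAI1 and TCF4 last by both lengths.

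The summed level of the 8 factors, by exon length, was 61.6, 64.1 and 64.0 CPM per kb in control replicates 1 to 3 and 72.6, 71.1 and 72.6 CPM per kb in vitamin C replicates 1 to 3. Without division by length the sums overlapped, with 572 to 605 CPM in control wells and 566 to 613 CPM with vitamin C, so the difference between the sums depends on the weighting by length. By exon length, TWIST1 made up 23.7% of this sum in control wells and 28.5% with vitamin C. SNAI2 went from 6.11% to 8.66%. ZEB1 went from 21.1% to 16.4% and ZEB2 from 16.7% to 12.8%, while PRRX1 held the largest part in both groups, with 31.1% and 32.5%. SNAI1 was at 1.22% and 1.14%, and its shares overlapped between the groups. Shares of 1 sum are tied to each other, and this sum was higher with vitamin C. The levels of ZEB1 and ZEB2 themselves changed by -11.4% and -12.5%. By longest transcript the shares were 17.0% and 21.1% for TWIST1, 4.31% and 6.29% for SNAI2, 17.1% and 13.7% for ZEB1 and 25.7% and 20.3% for ZEB2, which put ZEB2 above TWIST1 in control wells.

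Ratios between factors within a library do not depend on how libraries are scaled. With 3 wells against 3, the exact permutation test cannot give a p below 0.1, so none of these ratios could pass a threshold of 0.05. The ratio of ZEB2 to ZEB1 counts was 2.30, 2.34 and 2.27 in control replicates 1 to 3 and 2.35, 2.33 and 2.14 in vitamin C replicates 1 to 3. It differed by -0.02 on the log2 scale (two-sided exact permutation p = 0.9, adjusted p = 0.9 over 4 pairs), and the groups overlapped. SNAI2 to SNAI1 was 8.51, 13.2 and 9.31 against 19.2, 12.3 and 14.9, a log2 difference of 0.59 (exact permutation p = 0.2, adjusted p = 0.27) with overlapping groups.

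The other pairs set a factor that was higher with vitamin C against a ZEB gene. SNAI2 to ZEB1 was 0.122, 0.11 and 0.111 in control wells and 0.212, 0.19 and 0.223 with vitamin C, a fold of 1.82 (log2 difference 0.87). ZEB2 to TWIST1 was 9.08, 9.15 and 7.93 in control wells and 6.29, 5.99 and 4.53 with vitamin C, a fold of 0.637 (log2 difference -0.65). Neither pair overlapped between the groups, and both had the smallest p that the exact permutation test allows (p = 0.1, adjusted p = 0.2). Both outcomes follow from the levels of the single factors and add no separate evidence. In every vitamin C well SNAI2 and TWIST1 lay above all control wells, and ZEB1 and ZEB2 below them. TWIST2 to TWIST1 and TCF4 to ZEB2 were not tested, since a member had under 10 counts in a library.

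**Figure D3:**
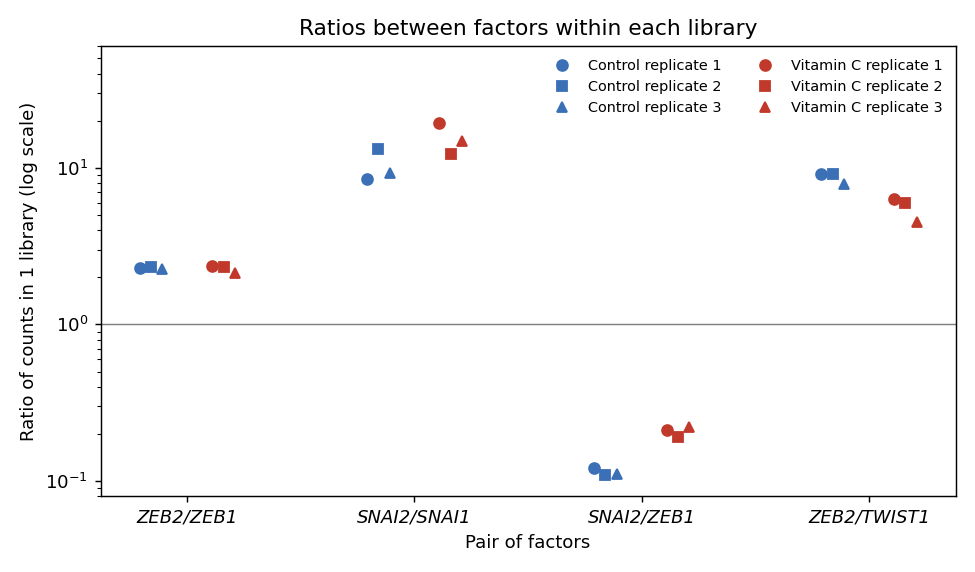
Ratio of the counts of 2 factors within each library, on a log axis, with a marker for each well (3 control, 3 vitamin C). ZEB2/ZEB1 stays between 2.14 and 2.35 in all 6 wells, SNAI2/ZEB1 lies higher in every vitamin C well and ZEB2/TWIST1 lower.

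ZEB1 and ZEB2 RNAs carry more seed matches of the miR-200 family than the RNAs of the other factors. These miRNAs are known to repress both genes in epithelial cells, and ZEB proteins in turn repress the miRNA genes. The 5 mature members are printed because their 2 seeds define the sites counted here (RefSeq, GRCh38.p14, 5′ to 3′, bases 2 to 8 in capitals).
hsa-miR-200a-3p: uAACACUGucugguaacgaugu
hsa-miR-141-3p: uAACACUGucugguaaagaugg
hsa-miR-200b-3p: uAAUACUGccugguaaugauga
hsa-miR-200c-3p: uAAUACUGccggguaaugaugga
hsa-miR-429: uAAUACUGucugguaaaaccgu
The first pair share the seed AACACUG and the other 3 share AAUACUG, a difference of 1 base.

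The letters CAGTGTT and CAGTATT, the complements of these seeds, were searched on the transcript strand of the longest annotated 3′ UTR of each gene. ZEB1 held 9 in 2549 bases (3 and 6 of each) and ZEB2 held 9 in 5370 bases (4 and 5). Of 19098 genes searched, 28.2% held at least 1 and 0.0314% held as many as 9. TCF4 held 3 and SNAI2 held 1. SNAI1, TWIST1, TWIST2 and PRRX1 held 0. These windows of 28 bases show sites of both kinds in the ZEB genes, with the match in capitals (GRCh38).
ZEB1, chr10:31527622-31527649, plus strand: ttttatcttatCAGTATTatcactctta
ZEB1, chr10:31528786-31528813, plus strand: atttgatttaaCAGTGTTatgttaacat
ZEB2, chr2:144388980-144389007, minus strand: ctacaatgcatCAGTATTatgattcctc
ZEB2, chr2:144388701-144388728, minus strand: ccatccttgtaCAGTGTTaagagggtaa
A match of letters is a description and not a measured site. The host gene MIR200CHG and the genes MIR200A, MIR200B, MIR200C, MIR141 and MIR429 had 0 counts in all 6 libraries. MIR205HG, which hosts another miRNA that targets the ZEB genes, had 1 count in control replicate 1 and 1 each in vitamin C replicates 2 and 3. These libraries do not measure mature miRNAs, whose levels were not analysed here.

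Junction and epithelial genes, listed as targets of these factors, were mostly at or near 0, and their repression was not measured. Of 32 such genes, 17 did not pass the filter, 15 were tested, 2 were called higher and 1 lower, with a median log2 fold change of -0.01. That is 3 of 15 called, beside 11.2% of all genes tested. CDH1 was counted 1, 5 and 0 times in control replicates 1 to 3 and 7, 17 and 6 times in vitamin C replicates 1 to 3. It did not pass the filter. With no filter its log2 fold change was 2.29 (edgeR adjusted p = 0.031), on sums too small for a firm size. Adjusted p-values of this fit were unlike those of the main edgeR test. SNAI2 had 1.0e-11 with no filter against 8.8e-05, and ZEB1 had 0.079 against 0.044. CDH1 was therefore not counted as called. CDH3, the gene for P-cadherin, rose from 0.143 ± 0.0808 to 0.604 ± 0.109 CPM (mean ± SD, 3 wells each), with a log2 fold change of 1.97 (SE 0.441, edgeR adjusted p = 0.011). It was counted 6, 6 and 1 times in control wells and 17, 22 and 10 times with vitamin C. CDH3 thus passed the filter only through the vitamin C wells, where it was high, and its call is not independent of that. PKP3, a desmosome plakophilin, rose from 2.31 ± 0.209 to 4.39 ± 0.805 CPM (edgeR adjusted p = 0.0045). KRT18, a simple epithelial keratin, fell from 56.2 ± 1.7 to 48.5 ± 1.24 CPM (edgeR adjusted p = 0.026). PKP3 was called under all 14 alternatives. The call of CDH3 was lost without control replicate 1, control replicate 3 or vitamin C replicate 2 (adjusted p up to 0.072). DESeq2 gave CDH3 no adjusted p, and the filter of 10 counts in every library removed it. The call of KRT18 was lost with no filter or without any 1 control replicate, vitamin C replicate 1 or vitamin C replicate 2 (up to 0.12). DSP, the gene for desmoplakin, stood at 226 ± 1.64 and 213 ± 8.34 CPM and was not called (edgeR adjusted p = 0.26).

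E-boxes of the letters CAGGTG, the form bound by SNAI and ZEB proteins, were searched on both strands (CACCTG on the other strand) of RefSeq promoters, from 250 bases before to 50 after each start. They were found in 24.1% of the 27305 genes with a promoter in that table. Among the 16 epithelial genes with one there, 11 (68.8%) held the letters. These genes were listed as targets of the EMT factors, so this share is not separate evidence of targeting. CDH1 and the called genes CDH3, PKP3 and KRT18 were not among these 16, so the search does not cover them. The same count was 2 of 12 for mesenchymal genes and 0 of 8 for melanocyte lineage markers. These 4 epithelial promoters and that of ZEB1 show the sequence (GRCh38.p14, read on the gene's strand, match in capitals).
CRB3, chr19:6464112-6464141, plus strand: ggggtcccgttaCAGGTGcgcccacagcgc
CLDN7, chr17:7262596-7262625, minus strand: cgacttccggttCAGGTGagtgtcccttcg
OCLN, chr5:69492502-69492531, plus strand: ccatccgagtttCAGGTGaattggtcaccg
DSP, chr6:7541574-7541603, plus strand: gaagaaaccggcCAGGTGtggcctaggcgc
ZEB1, chr10:31318348-31318377, plus strand: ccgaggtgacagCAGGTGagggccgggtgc
Genes with the letters were found among those at 0 and among those well counted. CRB3, with 5 matches, stood at 0.0 CPM in control wells, CLDN7, with 5, at 0.032 CPM, OCLN, with 3, at 8.84 CPM and DSP, with 2, at 226 CPM. Of the 5 factors with a promoter in the table, ZEB1 alone held the letters, and PRRX1, ZEB2, TWIST2 and TCF4 did not. No binding was measured.

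Mesenchymal genes are those that EMT factors raise directly or indirectly. Of 20 such genes, 18 passed the filter, 7 were called higher and 2 lower, with a median log2 fold change of 0.16. That is 50.0% called, beside 11.2% of all genes tested. CALD1, an actin-binding protein, rose from 363 ± 13.6 to 490 ± 15.6 CPM (mean ± SD of 3 wells, edgeR adjusted p = 4.6e-05). S100A4, a calcium-binding protein tied to motility, rose from 22.7 ± 1.14 to 39.4 ± 8.02 CPM (edgeR adjusted p = 6.0e-04). The matrix protein gene POSTN rose from 1.02 ± 0.411 to 2.98 ± 0.104 CPM (edgeR adjusted p = 7.9e-04).

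FN1, the gene for fibronectin, went the other way. It fell from 1780 ± 12.8 to 1540 ± 79.6 CPM (edgeR adjusted p = 0.0082), and MMP9, a gelatinase, fell from 3.19 ± 0.292 to 2.1 ± 0.294 CPM (edgeR adjusted p = 0.038). The call of FN1 was lost without control replicate 3 (adjusted p = 0.053), and that of MMP9 under 7 of 14 alternatives. The classical pair VIM and CDH2 were not called. VIM, which encodes the intermediate filament vimentin, stood at 2930 ± 61.5 CPM in control wells and 3090 ± 143 CPM with vitamin C (edgeR adjusted p = 0.26). CDH2, the gene for N-cadherin, stood at 466 ± 16.6 and 442 ± 10.9 CPM (edgeR adjusted p = 0.31).

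The fibroblast marker list shares COL1A1, COL1A2 and COL3A1 with the mesenchymal list. Of 10 such markers 8 were tested, 5 were called higher and 0 lower, with a median log2 fold change of 0.77. The markers called were 62.5% of those tested, beside 11.2% of all genes. Their summed level ran from 114 to 126 CPM in control wells and from 188 to 220 CPM with vitamin C. LUM and FAP held most of these counts, with 51.1 ± 3.58 and 55.3 ± 1.66 CPM in control wells and 90.2 ± 7.28 and 95.1 ± 7.29 CPM with vitamin C. The defining marker COL1A1 was at 0.47 CPM in control wells, and THY1 was counted 5, 4 and 1 times in control wells and once in each vitamin C well. Of 10 blood cell markers 3 were tested, 1 was called higher and 1 lower, and the list summed to 12.6 to 14.5 CPM in control wells and 13.8 to 15.9 CPM with vitamin C, with HBA1 at 0 counts throughout. Of 10 keratinocyte markers 2 were tested and 0 called, with sums of 15.5 to 17.5 and 15.9 to 18.7 CPM. Their part in the levels of the EMT factors was not tested. In bulk RNA, more cells of a kind and more RNA per cell cannot be told apart.

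The partners of the bHLH factors were next. TWIST1 dimerizes with E proteins, and ID proteins block such dimers. Of 8 genes in this list 6 were tested, with 0 called higher, 1 lower and a median log2 fold change of -0.02. This was 16.7% called, beside 11.2% of all genes tested. TCF3, which encodes the E proteins E12 and E47, was at 19.5, 19.7 and 19.1 CPM in control replicates 1 to 3 and at 15.8, 15.9 and 16.5 CPM in vitamin C replicates 1 to 3. It fell by 0.28 on the log2 scale (SE 0.0707, edgeR adjusted p = 0.022). This call was lost under 6 of 14 alternatives, namely with no filter and without any 1 control replicate, vitamin C replicate 1 or vitamin C replicate 2 (adjusted p up to 0.085). TCF12, which encodes another E protein, stood at 251 ± 6.11 and 239 ± 18.7 CPM (edgeR adjusted p = 0.47). None of the ID genes was called, with log2 fold changes of 0.41 for ID1, -0.10 for ID2, 0.03 for ID3 and 0.29 for ID4 (edgeR adjusted p from 0.13 to 0.96).

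SNAI, ZEB and TWIST proteins act through corepressors and chromatin enzymes. All 20 genes of this list were tested, with 0 called higher, 1 lower and a median log2 fold change of -0.01. The share called, 5.0%, was below the 11.2% of all genes tested. SMARCA4, a chromatin remodeling ATPase that acts with ZEB1, fell from 197 ± 9.04 to 170 ± 7.02 CPM (mean ± SD of 3 wells, edgeR adjusted p = 0.015). The call was lost without control replicate 1, control replicate 2 or vitamin C replicate 2 (adjusted p up to 0.087).

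Several of these factors, SNAI1 above all, are short-lived proteins under the control of ubiquitin ligases and kinases. Of 19 such regulators tested, 3 were called higher and 0 lower, with a median log2 fold change of -0.02. The share called, 15.8%, was near the 11.2% of all genes tested. FBXL5, the iron-sensing F-box protein of a ubiquitin ligase known to act on SNAI1, was at 103, 97.7 and 106 CPM in control replicates 1 to 3 and at 173, 170 and 175 CPM in vitamin C replicates 1 to 3. Its log2 fold change was 0.76 (SE 0.0472, edgeR adjusted p = 5.6e-07). LOXL2, a lysyl oxidase that stabilizes SNAI1, rose from 17.2 ± 2.28 to 25.1 ± 1.52 CPM (edgeR adjusted p = 0.0019). ATM, a kinase reported to stabilize ZEB1, rose from 530 ± 14.5 to 589 ± 11.2 CPM (edgeR adjusted p = 0.03). FBXL5 and LOXL2 were called under all 14 alternatives, while ATM was lost without any 1 control replicate, vitamin C replicate 1 or vitamin C replicate 2 (adjusted p up to 0.13). Protein levels were not measured in these libraries.

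Of 26 genes of pathways that induce EMT factors, 25 were tested, 4 were called higher and 2 lower, with a median log2 fold change of 0.05. That is 24.0% called, beside 11.2% of all genes tested. EPAS1, which encodes HIF-2α, rose from 2.69 ± 0.246 to 4.99 ± 0.31 CPM (mean ± SD of 3 wells, edgeR adjusted p = 0.0016). WNT5A, a ligand tied to melanoma motility, rose from 3.22 ± 0.219 to 5.74 ± 0.858 CPM (edgeR adjusted p = 0.0022). The TGF-β receptor gene TGFBR1 rose from 205 ± 0.929 to 245 ± 6.43 CPM (edgeR adjusted p = 0.0018), while the ligand gene TGFB1 fell from 10.3 ± 0.665 to 7.71 ± 0.748 CPM (edgeR adjusted p = 0.021) and the coreceptor gene TGFBR3 from 66.9 ± 2.13 to 55.4 ± 3.2 CPM (edgeR adjusted p = 0.0085). The call of TGFB1 was lost without control replicate 1, control replicate 2 or vitamin C replicate 2 (adjusted p up to 0.098), and that of TGFBR3 without control replicate 2 (0.055).

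Other transcription factors linked to EMT numbered 18, of which 12 were tested. Among the 12, 2 were called higher and 0 lower (16.7% called, beside 11.2% of all genes tested), with a median log2 fold change of 0.12. SOX9, a neural crest factor, rose from 4.71 ± 0.977 to 7.8 ± 0.829 CPM (mean ± SD of 3 wells, edgeR adjusted p = 0.0086). TBX3, a T-box repressor of CDH1, rose from 40.6 ± 0.999 to 47.8 ± 1.39 CPM (edgeR adjusted p = 0.018). TBX3 was lost without control replicate 2, control replicate 3 or vitamin C replicate 2 (adjusted p up to 0.087). FOXC2, FOXQ1 and GSC had 0 counts in all libraries.

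**Figure D4:**
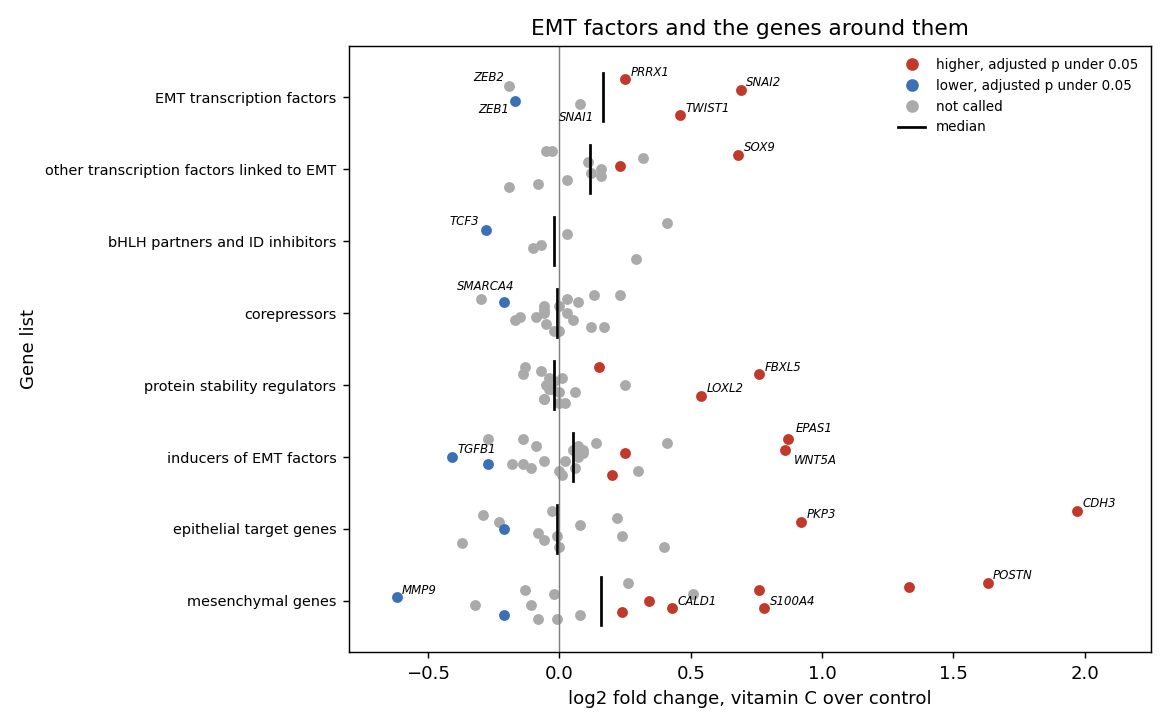
Log2 fold change (vitamin C over control) of every tested gene in 8 lists, with genes called higher in red, called lower in blue and not called in gray, and a bar at each median. The EMT factors and the mesenchymal genes have medians of 0.17 and 0.16, and the other medians lie between -0.02 and 0.12.

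Genes near the factors were then compared. In GENCODE 29, 44 genes lie within 100 kb of one of the 8, and 12 of them were tested. Among the 12, 1 was called higher and 0 lower (8.33% called, beside 11.2% of all genes tested). HDAC9, a histone deacetylase gene 18575 bases from TWIST1 on the opposite strand (chr7:18086949-19002416), stood at 16.2, 16.2 and 16.6 CPM in control replicates 1 to 3 and at 25.9, 25.6 and 25.1 CPM in vitamin C replicates 1 to 3. Its log2 fold change was 0.65 (SE 0.0673, edgeR adjusted p = 4.2e-05), beside 0.46 for TWIST1. ZEB1-AS1 and ZEB2-AS1, antisense genes that overlap ZEB1 and ZEB2 near their starts, had 2.12 and 0.39 CPM in control wells and were not called (edgeR adjusted p = 0.78 and 0.94). Opposite-strand genes overlap 4.231% of the exon bases of ZEB1, 5.184% of ZEB2 and 6.936% of TWIST1, and the sources used here do not say whether strand entered the counting.

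The genes most like SNAI2 over the 6 libraries, among 13672 genes whose mean reached 1 CPM, were ZNG1A, MBP and IGSF10, with Pearson's r of log2 CPM of 0.9976, 0.9974 and 0.9967. Those most like PRRX1, the factor with the highest level per length, were BST2, ATF7IP and TRAPPC13, with r of 0.9986, 0.9967 and 0.9958. Genes named only by an identifier were passed over in both rankings. The 6 points share their libraries and fall into the 2 groups, and r is given as a description. MBP went from 49.9 to 78.3 CPM and BST2 from 2.89 to 6.8 CPM, on means of 3 wells each. The sizes differed among the genes alike to SNAI2, from a log2 fold change of 0.09 for ZNG1A to means of 1.1 and 2.97 CPM for IGSF10.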

How the data were processed

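Ribosome-depleted total RNA of 3 control and 3 vitamin C wells of A2058 cells was sequenced. The authors deposited counts of reads per gene, without normalization. Per the submitters' processing notes, CASAVA 1.4, Trim Galore and STAR were run on hg38, and the paper names HTSeq for counting with an older GENCODE annotation. The 6 tables of single samples hold the same values as the series table. Symbols, positions and lengths came from GENCODE 29, which holds 57055 of the 60675 identifiers.

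The tests were run with edgeR 4.0.16 under R 4.3.3 (filterByExpr, TMM, quasi-likelihood test, no covariate), and p-values were adjusted by Benjamini-Hochberg over the 16353 genes tested. DESeq2 1.42.0 and limma-voom (limma 3.58.1) were alternatives, with other scalings and filters, the replicate number as a block and each library left out. The testing step was tested on simulated data. Replicates of a group differed by more than sampling noise (chi-square per degree of freedom from 2.75 to 11). Ratios of counts plus 0.5 were compared by a two-sided exact permutation test. Depth was 16248869 counts or more per library.

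Genes named are the 8 factors and up to 3 called genes in each direction of each list by smallest p. Also named are CDH1, CDH2, VIM, FN1, TCF3, TCF12, ID1 to ID4, MITF and SOX10. For likeness they are the 3 with the highest r among genes with a symbol. DSP, CRB3, CLDN7, OCLN, the antisense genes, the cell type markers and genes at 0 were named outside this rule after their values were seen. The 8 factors and the lists were chosen with earlier results of these data known. Promoters of SNAI1, SNAI2, TWIST1, CDH1, CDH3, PKP3 and KRT18 were not among those searched.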

Additional observations from a re-analysis of the deposited data

How the results depend on the processing

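The count of called genes was 1829, and 964 to 2095 with 1 library left out. Calls of SNAI2, TWIST1 and PRRX1 were kept under all 14 alternatives. ZEB1 missed the threshold with library size only (log2 fold change -0.16, edgeR adjusted p = 0.058), with no filter on low counts (-0.17, adjusted p = 0.079), and without each library in turn (-0.21 to -0.14). ZEB2 passed it with DESeq2 (-0.19, adjusted p = 0.033), no filter (-0.18, adjusted p = 0.015), upper quartile scaling (-0.20, adjusted p = 0.036) and without vitamin C replicate 1 (-0.24, adjusted p = 0.033), in a range of -0.24 to -0.12 with 1 library left out. Factors called lower were therefore 2 with DESeq2 or upper quartile scaling, 0 with library size only and 0 to 1 with 1 library left out. SNAI1 ran from -0.10 to 0.29, reversed at -0.10 without control replicate 2 and -0.04 without vitamin C replicate 2. With 1 library left out, calls ran from 1 to 3 among other EMT factors, 0 to 1 among bHLH partners (0 with no filter), 0 to 2 among corepressors (2 with upper quartile scaling) and 1 to 4 among epithelial genes. The ZEB2/ZEB1 difference ran from -0.05 to 0.02 and reversed to 0.02 without vitamin C replicate 3. The cause was not tested. Same-numbered wells of the 2 groups had correlations of 0.123, -0.0237 and 0.0915 in their deviations from the group means. With 3 wells per group, these values cannot settle whether same-numbered wells were handled together. With the replicate number as a block 1913 genes were called, ZEB1 missed the threshold (-0.17, adjusted p = 0.051) and ZEB2 passed it (-0.19, adjusted p = 0.04). Depth limits SNAI1, TCF4, TWIST2, CDH1 and CDH3, whose libraries held at most 65 counts each.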
